A study of Mus musculus with 8 samples.

Results

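A set of 10 genes of the TNF superfamily was followed in tumor-associated macrophages (TAMs) of WT and miR-21-/- mice. The 10 genes were taken by symbol from the 53247 genes of the table, from a list drawn up with earlier results of these data known, and are 5 ligands (Tnf, Tnfsf9, Tnfsf10, Tnfsf12 and Tnfsf13b) and 5 receptors (Tnfrsf1a, Tnfrsf1b, Cd40, Fas and Tnfrsf9). All 10 had a mean of at least 1 read in 1000000 of the column totals and were among the 13850 genes tested. Tnf and the costimulatory receptor Cd40 were higher in miR-21-/- TAMs, Tnf by 1.97-fold and Cd40 by 1.69-fold. Fas and Tnfrsf1a were higher and Tnfrsf1b was lower by smaller amounts, and the other 5 genes did not pass either limit used here.

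The data came from RNA-Seq of 8 samples, 4 from WT and 4 from miR-21-/- mice. The mice were of the C57BL/6 background and 10 weeks old. Both genotypes received the same s.c. implant of Lewis lung carcinoma (LLC) cells, a mouse lung tumor line, and after 14 days TAMs, gated on CD45, CD11b, MHC II and F4/80 as positive for each, were sorted from the digested tumors. In the miR-21-/- animals the microRNA is absent from all host cells, not from macrophages alone, whereas no source used here gives a change to the implanted tumor line. Replicate 1 of the miR-21-/- group bears a title with a pair of numbers, which leaves unsaid if mice were pooled; it was counted as 1 sample. Nothing beyond the label of biological replicate says that the samples were separate animals, so the p-values measure the spread between these samples. Values are CPM, the reads of a gene per 1000000 reads of the library, and the depth read from the smallest steps of the values was 20.2 to 33.4 in units of 1000000 reads. The deleted gene could not check the labels, since Mir21a was listed at the table's minimum of 0.0001 CPM in 8 of 8 samples.

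The ligands of the TNF superfamily are mostly made as membrane proteins that assemble as trimers, and several, TNF among them, are released from the surface by proteases. Their receptors either carry a death domain, which can couple them to caspases (TNFR1, encoded by Tnfrsf1a, and FAS), or bind TRAF adaptors directly and signal to NF-kB (TNFR2, encoded by Tnfrsf1b, CD40 and CD137, encoded by Tnfrsf9). Macrophages are a main source of TNF, and CD40 on macrophages is bound by the CD40 ligand of activated T cells.

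The sorted samples were first checked with marker genes. The 10 macrophage markers summed to 11895 to 13336 CPM in WT and 12760 to 15431 CPM in miR-21-/- samples, with Lyz2 as the most abundant. Of these 10, Adgre1, the gene of the F4/80 antigen of the gate (542 to 583 CPM in WT, 399 to 466 in miR-21-/-), and Csf1r (1108 to 1474 against 866 to 1044) were lower in all miR-21-/- samples, and Fcgr1 (229.6 to 305 against 411 to 518) was higher in all. The sums of the 6 neutrophil markers (768 to 1168 CPM in WT, 564 to 740.1 in miR-21-/-), the 6 fibroblast markers (60.7 to 137 against 10.1 to 44.1), the 5 B cell markers (11.4 to 17.6 against 3.84 to 11.3) and the 5 markers of tumor epithelium (18.8 to 24.8 against 12.7 to 17.9) were lower in all miR-21-/- samples. For T cells (8 markers, 22.1 to 43.6 against 9.91 to 41.3), NK cells (6 markers, 4.99 to 12.6 against 8.64 to 21.7), dendritic cells (6 markers, 11.2 to 19.9 against 15.2 to 38.4) and endothelium (5 markers, 153 to 304 against 203 to 292) the sums of the genotypes overlapped. Within the lists whose sums overlapped, Cd8a (1.32 to 2.19 CPM in WT, 2.80 to 11.6 in miR-21-/-), the NK cell marker Klrd1 (1.07 to 1.75 against 1.84 to 3.66) and the dendritic cell marker Clec9a (2.30 to 2.74 against 4.18 to 14.0) were higher in all miR-21-/- samples, and Cd4 (5.93 to 30.0 against 0.845 to 3.40) was lower in all. Of the 6 neutrophil markers, Csf3r (298 to 338 CPM in WT, 217 to 265 in miR-21-/-) and Mmp8 (52.7 to 68.5 against 23.9 to 42.2) were lower in all miR-21-/- samples. The others overlapped, Ly6g (1.09 to 2.74 against 1.52 to 3.17) among them. No marker of any of these lists was at the minimum in every sample, and 4 of 6 NK cell and 4 of 5 B cell markers had a mean under 1 CPM. The part of these cells in the results below was not tested, and fewer cells of a type and less RNA per cell cannot be told apart in such samples.

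Seed matches for the deleted microRNA were searched in annotated 3′ UTRs of the 10 genes, and other kinds of site, and sites elsewhere in the transcripts, were not searched. The mature strand is printed with its seed, bases 2 to 8, in capitals, from the RefSeq annotation of GRCm38.p6, where it lies at chr11:86584120-86584141 on the minus strand.
mmu-miR-21a-5p: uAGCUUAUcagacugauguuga
In the longest 3′ UTR that GENCODE vM21 gives each gene on GRCm38, matches to at least 6 bases of the seed site (TAAGCT within ATAAGCTA) were found in 2 of the 10 genes. These were Tnfsf10 and Tnfsf13b, which also had the longest 3′ UTRs of the 10 (3998 and 3631 bases). The share of all genes with such a match was not counted. The 3 sites are printed with the 7 matched bases in capitals, the first at base 3141 of the 3′ UTR of Tnfsf10 and the others at bases 764 and 2696 of that of Tnfsf13b.
Tnfsf10 site: aagacaagagATAAGCTggtgtaccccg
Tnfsf13b site at base 764: agccactcacATAAGCTctgctttgagc
Tnfsf13b site at base 2696: gaatgggcctcTAAGCTAatcaccattc
The other 8 genes, which include all 5 that differed between the genotypes, had no such match in 3′ UTRs of 253 to 2324 bases.

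The comparison of genotypes was fitted with limma on log2(CPM + 1) over all 13850 genes, and the threshold asked for a change of more than 1.5-fold and a p, adjusted by Benjamini-Hochberg, of 0.005 or less. Of the 10 genes, 2 passed, both higher in miR-21-/- TAMs, where 7.12% of all tested genes passed, 2.89% higher and 4.23% lower. At an adjusted p at or under 0.05 with no limit on the fold, a limit chosen after the data were seen, 5 of 10 did, against 36.0% of all tested genes. By direction, 4 of the 10 genes were higher, against 9.49% of all tested genes, and 1 was lower, against 26.5%. The same 5 genes had values that did not overlap between the genotypes, which was so for 35.1% of all tested genes. The median log2 fold change of the 10 genes was 0.25, with 8 above and 2 below 0, and that of all tested genes was -0.10. Rescaling by the median of ratios moved the median of all tested genes by 0.0998, and the share of calls that were higher from 40.6% to 59.8%.

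**Figure D1:**
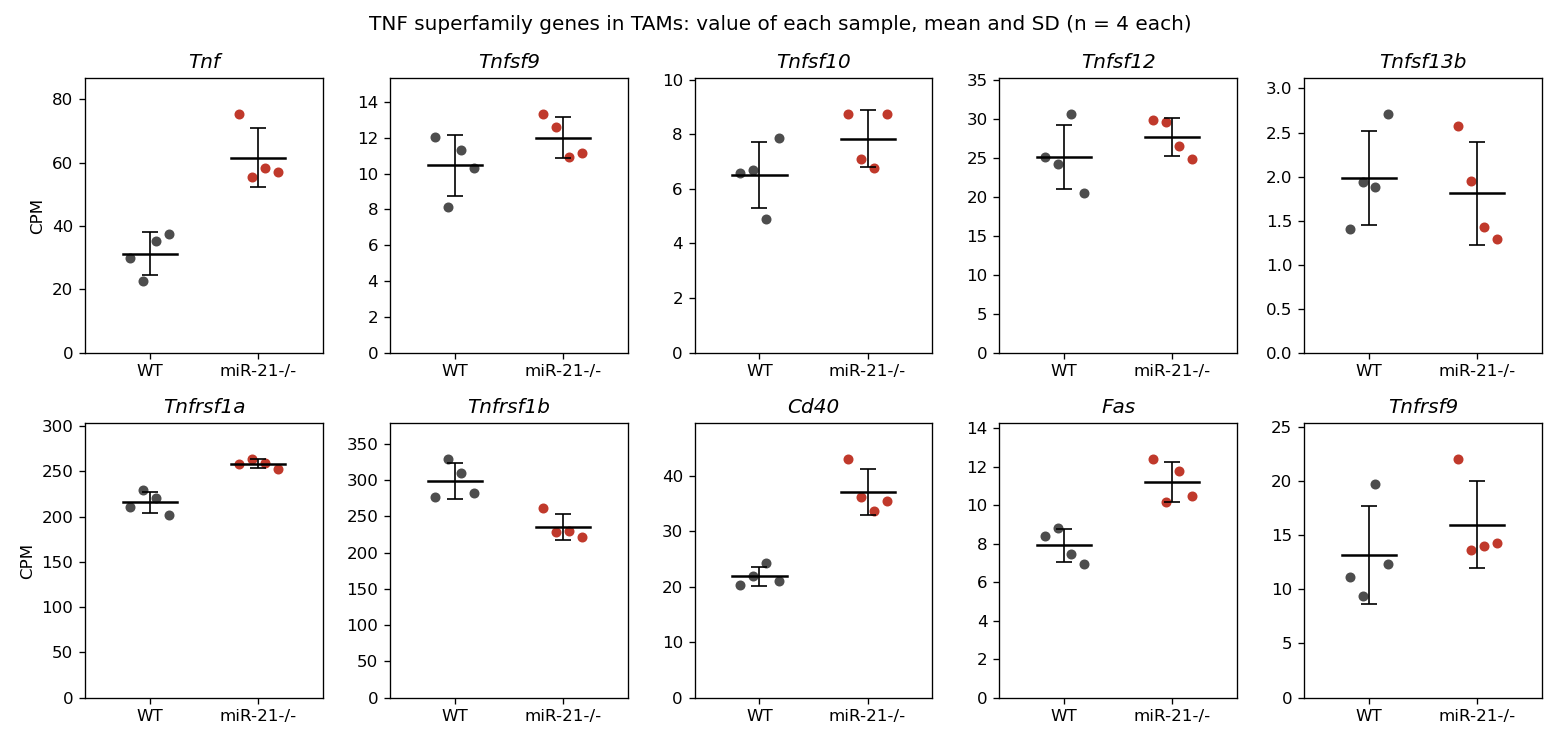
CPM of the 10 genes (y axis, linear from 0, with its own scale in each panel) in 4 WT and 4 miR-21-/- samples; points are samples from replicate 1 at the left to replicate 4 at the right, bars the mean and SD. Tnf, Tnfrsf1a, Cd40 and Fas lie higher and Tnfrsf1b lower in all miR-21-/- samples, and the other 5 genes overlap between the genotypes.

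Among the ligands, Tnf (chr17:35199381-35202007, minus strand, 4 exons) encodes the founding cytokine of the family. It was at 30.0, 22.4, 35.2 and 37.5 CPM in WT samples 1 to 4 and at 75.3, 55.3, 58.2 and 57.0 CPM in miR-21-/- samples 1 to 4. All miR-21-/- samples lay above all WT samples, and miR-21-/- replicate 1 stood above the other 3. The means were 31.3 ± 6.67 CPM and 61.5 ± 9.29 CPM (SD, n = 4 each), and the log2 fold change was 0.97 (SE 0.15, 95% interval 0.63 to 1.30, adjusted p = 0.00115 by limma). This placed Tnf at rank 203 of 13850 from the highest. Where low genes were kept, the adjusted p of Tnf was 0.00855 and it no longer passed; it passed in the other 15 of 16 alternative fits, each fit with 1 sample left out included.

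Tnf and both of its receptors differed, and so did Fas, so the bases before the start of Tnf, Tnfrsf1b and Fas are shown. Those of Tnfrsf1a are not, because they overlap an exon of another annotated transcript. Each run is the 250 bases before a RefSeq start on GRCm38.p6, 5′ to 3′ on the strand of the gene, at chr17:35202008-35202257 (minus), chr4:145246871-145247120 (minus) and chr19:34290409-34290658 (plus). Capitals mark matches, on either strand, to 3 patterns: GGNNTTTCC (the form of NF-kB sites), TTCNNNGAA (that of STAT sites) and GAAANNGAA (that of IRF sites).
Tnf: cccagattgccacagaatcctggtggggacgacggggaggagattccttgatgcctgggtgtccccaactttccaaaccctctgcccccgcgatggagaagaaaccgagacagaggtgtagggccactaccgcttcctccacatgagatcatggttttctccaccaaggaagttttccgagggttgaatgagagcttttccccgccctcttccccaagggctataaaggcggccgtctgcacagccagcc
Tnfrsf1b: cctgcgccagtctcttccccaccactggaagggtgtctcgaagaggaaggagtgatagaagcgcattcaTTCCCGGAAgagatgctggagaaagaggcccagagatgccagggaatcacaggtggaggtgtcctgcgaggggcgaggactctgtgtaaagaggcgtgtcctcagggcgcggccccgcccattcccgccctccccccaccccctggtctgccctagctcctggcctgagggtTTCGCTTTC
Fas: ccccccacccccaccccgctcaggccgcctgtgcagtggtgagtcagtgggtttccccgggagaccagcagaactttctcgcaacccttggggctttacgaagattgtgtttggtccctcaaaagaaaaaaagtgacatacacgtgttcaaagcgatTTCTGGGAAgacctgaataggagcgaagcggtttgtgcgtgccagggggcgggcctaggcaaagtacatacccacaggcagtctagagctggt
The patterns were searched in windows from 250 bases before to 50 bases after each RefSeq start. The set of windows used here held 7 of the 10 genes and lacked Cd40, Tnfsf9 and Tnfsf12, whose starts were therefore not searched. All matches in the 7 genes lay before the start. TTCNNNGAA matched in 4 of the 7 genes (Tnfrsf1a, Tnfrsf1b, Fas and Tnfrsf9), against 8.30% of the 32851 windows of all genes. GAAANNGAA matched in 2 of 7 (Tnfrsf1b and Tnfsf13b) against 8.56% of windows, and GGNNTTTCC in 1 of 7 (Tnfrsf9) against 5.82%. Of the 7 genes, 2 had more than 1 window (9 windows in all), so a count of genes is not on the same scale as a share of windows. A match is a description of letters only. The window of Tnf held none of the 3 patterns, which says only that these letters are not in it.

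Tnfsf9 (chr17:57105325-57107757, plus strand) encodes the ligand of CD137, a costimulatory signal for T cells. Its values were 12.1, 8.14, 11.3 and 10.3 CPM in WT and 13.3, 12.6, 10.9 and 11.1 CPM in miR-21-/- samples, which overlapped. The log2 fold change was 0.19 (SE 0.12, 95% interval -0.07 to 0.45, adjusted p = 0.228), and it was 0.086 without WT replicate 2.

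Tnfsf10 (chr3:27317028-27342427, plus strand) encodes TRAIL, a ligand that can trigger apoptosis through its receptor, and carries 1 of the sites shown above. It was at 6.59, 6.68, 4.90 and 7.85 CPM in WT and 8.73, 7.11, 6.76 and 8.73 CPM in miR-21-/- samples. The groups overlapped, and the log2 fold change was 0.24 (SE 0.13, 95% interval -0.05 to 0.54, adjusted p = 0.182). It was 0.13 without WT replicate 3 and 0.40 after quantile normalization (limma, adjusted p = 0.0577).

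Tnfsf12 (chr11:69686250-69695849, minus strand) encodes TWEAK. WT samples held 25.1, 24.2, 30.6 and 20.6 CPM and miR-21-/- samples 29.8, 29.6, 26.5 and 24.9 CPM, with a log2 fold change of 0.15 (SE 0.11, 95% interval -0.10 to 0.39, adjusted p = 0.327). Without WT replicate 4 the value was 0.059, and without WT replicate 3 it was 0.24. Its values are uncertain, because Tnfsf12 overlaps Tnfsfm13, a read-through gene on the same strand that joins it to its neighbour Tnfsf13, and how reads were divided is not given in the sources used here. Tnfsfm13 itself averaged 24.4 ± 3.64 CPM in the WT and 22.6 ± 3.18 CPM in the miR-21-/- samples (SD, n = 4 each). The sum of Tnfsf12, Tnfsfm13 and Tnfsf13 was 77.4 ± 9.14 CPM and 69.0 ± 5.46 CPM.

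Tnfsf13b (chr8:10006467-10039072, plus strand), the gene of BAFF, a survival factor of B cells, was the lowest of the 10 genes and rested on as few as 37 reads in a sample. Its values were 1.40, 1.94, 1.88 and 2.71 CPM in WT and 2.58, 1.95, 1.42 and 1.29 CPM in miR-21-/- samples, with wide overlap. The log2 fold change was -0.09 (SE 0.17, 95% interval -0.48 to 0.29, adjusted p = 0.706). Its sign was not fixed: it was 0.06 after quantile normalization and 0.02 without WT replicate 4. The intervals of Tnfsf13b and Tnfsf10, the genes with seed sites, include 0, and any effect of these sites was not tested.

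Among the receptors, Tnfrsf1a and Tnfrsf1b, the receptors of TNF, differed in opposite directions. Tnfrsf1a (chr6:125349362-125362484, plus strand), the death domain receptor, was at 210.9, 229, 220.5 and 201 CPM in WT and at 259, 263, 259.7 and 252 CPM in miR-21-/- samples. All miR-21-/- samples were higher, by 1.20-fold in the means (216 ± 12.0 CPM against 258 ± 4.76 CPM, SD, n = 4 each). The log2 fold change was 0.26 (SE 0.053, 95% interval 0.14 to 0.38, adjusted p = 0.00444), past the limit on p but not that on the fold. The limit of 0.005 was missed in every fit with 1 sample left out (adjusted p 0.00582 to 0.0154), with no filter on low values (0.0107), without the trend (0.0105) and after quantile normalization (0.0101).

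Tnfrsf1b (chr4:145213463-145246870, minus strand), the TRAF-binding receptor, was at 276, 329, 309 and 282 CPM in WT and at 262, 229, 229.8 and 222 CPM in miR-21-/- samples. The groups did not overlap, though miR-21-/- replicate 1 came close to the lowest WT sample. Means of 299 ± 24.6 CPM and 236 ± 17.7 CPM (SD, n = 4 each) gave a log2 fold change of -0.34 (SE 0.074, 95% interval -0.51 to -0.18, adjusted p = 0.00593). Both genes kept their direction, and an adjusted p at or under 0.05, in 16 of 16 alternative fits.

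Cd40 (chr2:165055627-165072948, plus strand) encodes the receptor through which T cell help reaches macrophages, dendritic cells and B cells. WT samples held 20.4, 22.0, 24.2 and 21.0 CPM and miR-21-/- samples 43.0, 36.2, 33.6 and 35.5 CPM. The lowest miR-21-/- sample lay well above the highest WT sample. Means were 21.9 ± 1.67 CPM and 37.1 ± 4.11 CPM (SD, n = 4 each), with a log2 fold change of 0.73 (SE 0.085, 95% interval 0.54 to 0.92, adjusted p = 0.000232) and rank 362 of 13850 from the highest. Of the markers of other cells that carry CD40, the B cell sum was lower in all miR-21-/- samples and the dendritic cell sum overlapped. Within the dendritic cell list, Clec9a was higher in all miR-21-/- samples (2.30 to 2.74 CPM in WT, 4.18 to 14.0 in miR-21-/-). Xcr1 was at 1.73 to 7.05 CPM in WT and 3.32 to 20.7 CPM in miR-21-/- samples. Other markers of this list went the other way. Cd209a (0.996 to 5.79 CPM in WT, 0.0769 to 1.16 in miR-21-/-), Flt3 and Zbtb46 ranged lower in miR-21-/- samples, with overlap. The miR-21-/- values of Ccr7 lay within its WT range. The part of these cells in the Cd40 value was not tested. A pseudocount of 10 brought the log2 fold change to 0.56, under the limit on the fold, and Cd40 passed in the other 15 of 16 alternative fits.

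Fas (chr19:34290666-34327772, plus strand) encodes a death receptor that also signals without cell death in macrophages. It was at 8.39, 8.83, 7.47 and 6.93 CPM in WT and 12.4, 10.2, 11.8 and 10.5 CPM in miR-21-/- samples, without overlap. Means of 7.91 ± 0.862 CPM and 11.2 ± 1.06 CPM (SD, n = 4 each) gave a log2 fold change of 0.46 (SE 0.096, 95% interval 0.24 to 0.67, adjusted p = 0.00530). It missed both limits of the threshold, and passed in 1 of 16 alternative fits, quantile normalization (log2 fold change 0.60).

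Tnfrsf9 (chr4:150914562-150946102, plus strand) encodes CD137, the receptor of the Tnfsf9 product. Its WT values of 11.1, 9.42, 19.7 and 12.3 CPM and its miR-21-/- values of 22.0, 13.6, 14.0 and 14.3 CPM overlapped, with 1 sample of each genotype far above the rest. The log2 fold change was 0.28 (SE 0.21, 95% interval -0.19 to 0.76, adjusted p = 0.319), the widest interval of the 10 genes. It was 0.13 without miR-21-/- replicate 1, 0.15 without WT replicate 2 and 0.49 without WT replicate 3 (adjusted p = 0.0553). Camta1 lies over Tnfrsf9 on the other strand, and whether reads were counted by strand is not given in the sources used here.

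**Figure D2:**
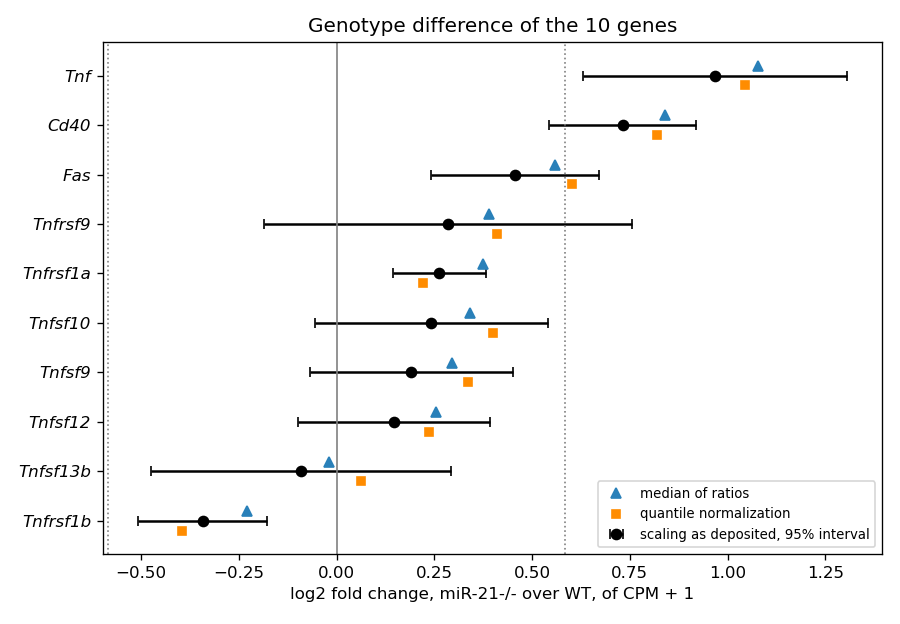
Log2 fold change of the 10 genes, miR-21-/- over WT, of CPM + 1 (x axis); black points with bars are the estimate and its 95% interval, triangles and squares the estimates after rescaling by the median of ratios or quantiles, and dotted lines a fold change of 1.5. Tnf (0.97) and Cd40 (0.73) lie beyond the right dotted line under all 3 scalings, and only Tnfsf13b changes side of 0.

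One sample ran through these values. miR-21-/- replicate 1, whose title joins a pair of numbers, was the highest of the 4 miR-21-/- samples in 9 of the 10 genes, against 23.7% of all tested genes. Of the miR-21-/- samples it also had the highest marker sums for macrophages (15431 CPM, against 12760 to 14085 in the others), T cells (41.3 CPM), NK cells (21.7 CPM), B cells (11.3 CPM) and tumor epithelium (17.9 CPM), and the lowest for dendritic cells (15.2 CPM) and fibroblasts (10.1 CPM). Without it Tnf and Cd40 still passed the threshold, and the part of these cells in its values was not tested.

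Levels of different genes were compared per kilobase of exon (the union of annotated exons). Overlap here is that of the ranges over samples, not within a sample. In WT TAMs Tnfrsf1a had 83.2 and Tnfrsf1b 78.3 CPM per kb, which overlapped, followed by Tnf at 19.1 and Tnfsf12 at 16.6, which also overlapped. Sample by sample, Tnfrsf1a stood above Tnfrsf1b throughout WT. Their CPM ratio there (Tnfrsf1b to Tnfrsf1a, 1.31 to 1.43) stayed under that of their exon lengths (3818 to 2591 bases). Tnfsf9 (8.11), Cd40 (6.43), Tnfrsf9 (4.83) and Fas (3.83 CPM per kb) came next, each overlapping its neighbour in this order. Tnfsf10 (1.24) and Tnfsf13b (0.289 CPM per kb) were lowest, each clear of the gene above it. Per length, the receptors of TNF thus were the most abundant of the 10 genes.

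In miR-21-/- TAMs Tnfrsf1a (99.7), Tnfrsf1b (61.7), Tnf (37.5) and Tnfsf12 (18.3 CPM per kb) no longer overlapped. Cd40 (10.9 CPM per kb) stood before Tnfsf9 (9.31), which it overlapped. Tnfrsf9 (5.87) and Fas (5.43) overlapped as well, and Tnfsf10 (1.49) and Tnfsf13b (0.263 CPM per kb) were again lowest. With the length of the longest transcript in place of the exon union, the order of the means was the same in both genotypes, but Tnfrsf1a and Tnfrsf1b no longer overlapped in WT TAMs, and in miR-21-/- TAMs Tnfsf9 overlapped Tnfrsf9 and not Cd40.

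Ratios of CPM within a sample do not depend on the scaling between samples, and those of CPM + 1 do only through the added 1, which matters for low genes such as Tnfsf13b. Of the latter, 5 were compared by a two-sided exact permutation test over all assignments of 4 of the 8 samples, for which the smallest possible p is 0.0286. The CPM ratio of Tnfrsf1b to Tnfrsf1a was 1.31 to 1.43 in WT and 0.868 to 1.01 in miR-21-/- TAMs. On the scale of log2(CPM + 1) it was 0.47 ± 0.056 in WT and -0.14 ± 0.10 in miR-21-/- TAMs, a difference of -0.60 (SD, n = 4 each; exact p = 0.0286, adjusted over the 5 ratios 0.0476). The ratio, which is of reads and not per length, was lower in every miR-21-/- sample than in any WT sample, and miR-21-/- replicate 1 was the nearest to the WT samples.

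The log2 ratio of Tnf to Tnfrsf1a was -2.77 ± 0.38 in WT and -2.06 ± 0.20 in miR-21-/- TAMs, a difference of 0.70, and that of Tnf to Tnfrsf1b was -3.24 ± 0.40 and -1.93 ± 0.10, a difference of 1.31 (SD, n = 4 each; exact p = 0.0286 and adjusted 0.0476 for both). In CPM, Tnf amounted to 0.0682 to 0.133 of Tnfrsf1b in WT and 0.242 to 0.288 in miR-21-/- TAMs. Neither ratio overlapped between the genotypes. With 1 sample left out, the differences lay between -0.66 and -0.58, between 0.53 and 0.83, and between 1.12 and 1.43 for these 3 ratios. Their adjusted p was 0.0714 to 0.0952 without any 1 miR-21-/- sample and 0.0476 without any 1 WT sample, and an exact test of so few samples allows only a few values of p.

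The log2 ratio of the ligand Tnfsf9 to its receptor Tnfrsf9 was -0.27 ± 0.36 in WT and -0.36 ± 0.24 in miR-21-/- TAMs (SD, n = 4 each; exact p = 0.629, adjusted 0.629). That of Tnfsf13b to Tnfsf13, the gene of APRIL, which shares receptors with BAFF, was -3.28 ± 0.29 and -2.83 ± 0.24 (SD, n = 4 each; exact p = 0.0571, adjusted 0.0714). Tnfsf13 itself was at 27.9 ± 4.77 CPM in the WT and 18.7 ± 2.30 CPM in the miR-21-/- samples, without overlap (limma log2 fold change -0.54, adjusted p = 0.00868), and it shares the read-through gene Tnfsfm13 with Tnfsf12. Both ratios overlapped between the genotypes.

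**Figure D3:**
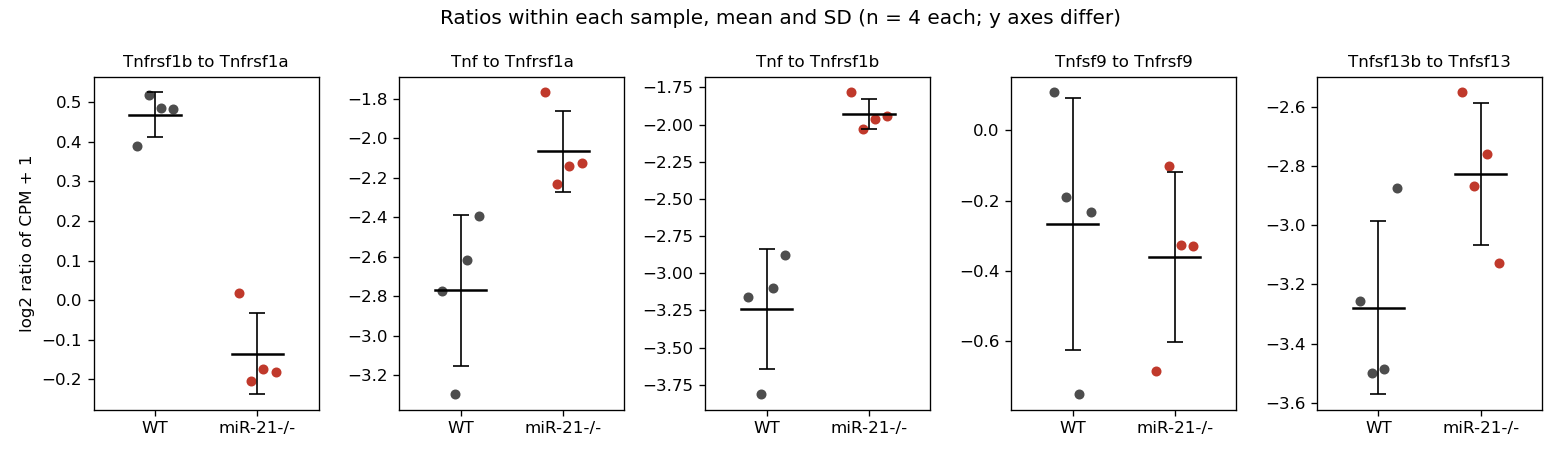
Log2 ratio of CPM + 1 within each sample for 5 pairs of genes (y axis, with its own scale in each panel) in 4 WT and 4 miR-21-/- samples; points are samples, bars the mean and SD. The first 3 ratios do not overlap between the genotypes, with Tnfrsf1b to Tnfrsf1a between 0.39 and 0.52 in WT and between -0.20 and 0.02 in miR-21-/- samples.

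The rest of the family and its pathway were described from lists, whose counts are to be read against the shares of all tested genes, 7.12% past the threshold (2.89% higher, 4.23% lower) and 36.0% at an adjusted p of 0.05 (9.49% higher, 26.5% lower), and whose medians against -0.10. Over all lists 7 of 71 tested genes passed the threshold and 26 of 71 had an adjusted p at or under 0.05. Of 18 ligand genes 11 were tested, and 2 passed, Tnf and Tnfsf15. Tnfsf15, the gene of the ligand TL1A, averaged 3.24 ± 0.363 CPM in the WT and 6.54 ± 1.75 CPM in the miR-21-/- samples (SD, n = 4 each), with a log2 fold change of 0.81 (adjusted p = 0.00277), and lost its call in 7 of 16 alternative fits, those without WT replicates 1, 2 or 3 or miR-21-/- replicates 2 or 3 among them. The lowest log2 fold change was that of Ltb, which encodes lymphotoxin beta (-0.70, adjusted p = 0.0516). At an adjusted p of 0.05, 3 of 11 ligands differed (2 higher, 1 lower), against 36.0% of all tested genes, and the median of the tested ligands was 0.15.

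Of 28 receptor genes 19 were tested, and 2 passed, Cd40 higher and Relt lower. Relt, which encodes an orphan receptor of the family, averaged 30.4 ± 3.35 CPM in the WT and 19.3 ± 1.68 CPM in the miR-21-/- samples (SD, n = 4 each), with a log2 fold change of -0.63 (adjusted p = 0.000691). Its change was under 1.5-fold after the median of ratios (-0.52) and quantile normalization (-0.53), with a pseudocount of 10 (-0.46), and it did not pass without WT replicate 2. At an adjusted p of 0.05, 10 of 19 receptors differed, 4 higher and 6 lower, against 9.49% and 26.5% of all tested genes, and the median was -0.01. Of the 46 family genes on both lists, 16 were under the filter on low values, the highest of them Tnfrsf8 at a mean of 0.786 CPM.

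All 26 adaptor and proximal signaling genes were tested and 1 passed. Mlkl, the gene of the protein that carries out necroptosis, averaged 21.7 ± 1.90 CPM in the WT and 44.4 ± 5.36 CPM in the miR-21-/- samples (SD, n = 4 each), with a log2 fold change of 1.00 (adjusted p = 6.35e-05), and passed in 16 of 16 alternative fits. Tab2, an adaptor of the kinase TAK1, had the lowest value (log2 fold change -0.49, adjusted p = 0.000539). The median was 0.02, and 7 of 26 genes (3 higher, 4 lower) had an adjusted p at or under 0.05, against 36.0% of all tested genes.

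Of 8 shedding and processing genes 7 were tested, and 2 passed, 1 higher and 1 lower, against 2.89% and 4.23% of all tested genes. Rhbdf1 and Rhbdf2 encode the iRhom proteins, which carry the TNF-releasing protease ADAM17 to the cell surface. Rhbdf1 was at 4.08, 6.75, 6.38 and 4.38 CPM in WT and 2.05, 2.07, 2.11 and 1.26 CPM in miR-21-/- samples (log2 fold change -1.14, SE 0.17, adjusted p = 0.000803). Rhbdf2 was at 96.6, 91.1, 103 and 91.4 CPM in WT and 153, 144, 138 and 144 CPM in miR-21-/- samples (log2 fold change 0.60, SE 0.057, adjusted p = 7.86e-05). The values of neither gene overlapped between the genotypes. Rhbdf2 lies at the limit of 1.5-fold and lost its call without WT replicate 2, WT replicate 4 or miR-21-/- replicate 1 and with a pseudocount of 10, and Rhbdf1 with that pseudocount and with no filter on low values. The median of the list was 0.02, and 3 of 7 genes had an adjusted p at or under 0.05, against 36.0% of all tested genes. By direction, 2 were higher and 1 lower, against 9.49% and 26.5%.

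Of 8 genes whose proteins bind Tnf mRNA and set its stability or translation, such as Zfp36, all were tested and 0 passed by limma, and 3 had an adjusted p at or under 0.05, all lower, the same number as with an unadjusted p under 0.05. They ranged from Tia1 (log2 fold change -0.28, adjusted p = 0.0179) to Rc3h2 (0.08, adjusted p = 0.325), with a median of -0.05. These 3 of 8 lower genes stand beside 26.5% of all tested genes that were lower at this limit. The lists are small, and their counts were not tested as sets.

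**Figure D4:**
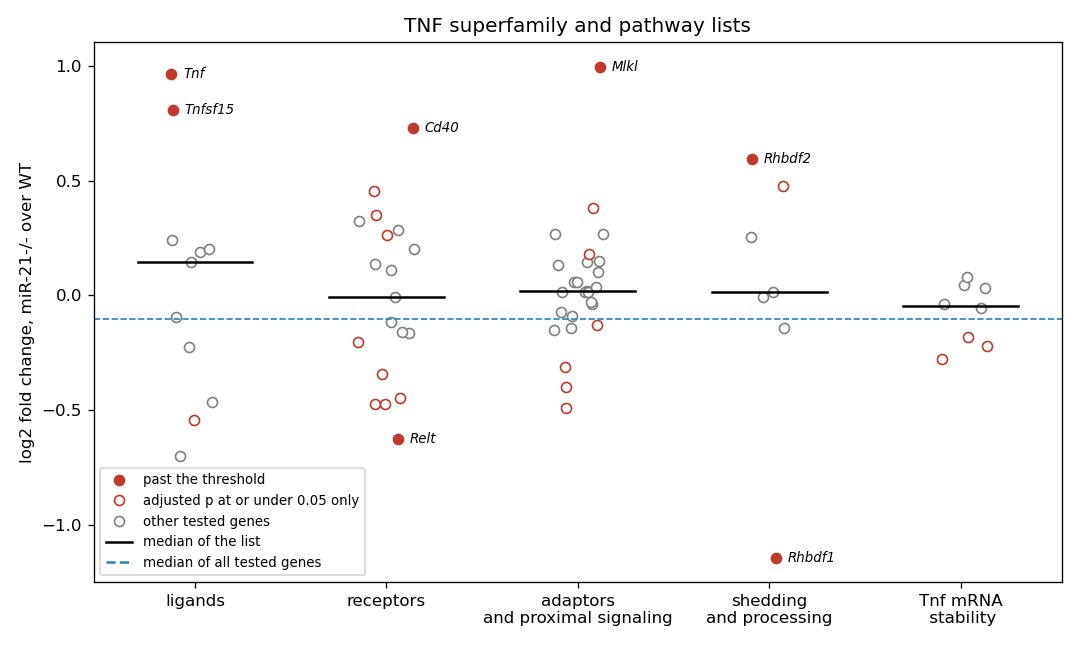
Log2 fold change, miR-21-/- over WT, of CPM + 1 (y axis) of the tested genes of 5 lists (x axis); filled points passed the threshold, red open points had an adjusted p at or under 0.05 only, black lines are the median of each list and the dashed line that of all 13850 tested genes (-0.10). Mlkl (1.00), Tnf (0.97) and Tnfsf15 (0.81) are the highest and Rhbdf1 (-1.14) the lowest, and the medians lie between -0.05 and 0.15.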

How the data were processed

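RNA-Seq values of TAMs from 4 WT and 4 miR-21-/- samples were taken from 1 table in which the authors deposited CPM for 53247 genes, each raised by 0.0001. The submitters' processing notes name Partek 7.0, STAR and mm10. The counting rule and strand setting are not given in the sources used here. The columns total 788099 to 807758 CPM. Low values, up to 20 reads, were whole multiples of 1 read (within 0.05 reads) in 75.5% to 76.5% of cases, so whole reads were not recovered and no count test was run. With 4 samples a genotype, the spread between samples sets the precision.

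From these values log2(CPM + 1) was fitted with limma 3.58.1 in R 4.3.3 (eBayes with an intensity trend, no covariate), over the 13850 genes whose mean reached 1 read in 1000000 of the column totals. Fold changes are of CPM + 1 and so are too small for low genes. The threshold, a change of more than 1.5-fold with an adjusted p of 0.005 or less, is that of the study. The model was tested on simulated data before use. Coordinates and exon lengths are those of GENCODE vM21 (GRCm38), whose starts were the same as in the table for 85 of 89 family and pathway genes. The microRNA and promoter sequences are from RefSeq (GRCm38.p6) and the 3′ UTR sites from GENCODE vM21. Plots were made in matplotlib 3.10.9.

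The 10 genes and the lists were chosen with earlier results of these data known. All 10 genes are named, and of each list the genes that passed and those at either end of the log2 fold changes. Alternatives were pseudocounts of 0.1 and 10, no filter and a filter of 5 per 1000000, the median of ratios, quantile normalization, eBayes without the trend, a replicate block, other limits and each sample left out in turn.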

Additional observations from a re-analysis of the deposited data

Results flagged for a closer look

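In groups of 4 samples, a single sample stood apart from the other 3 by Dixon's ratio in 4 of 48 groups tested, where chance gives about 1 in 20. Tnf was at 75.3 CPM in miR-21-/- replicate 1 and between 55.3 and 58.2 CPM in the other miR-21-/- samples. Tnfrsf9 was at 22.0 CPM in the same sample and between 13.6 and 14.3 CPM in the others. The log2 ratio of Tnfrsf1b to Tnfrsf1a was 0.0167 in this sample and between -0.20 and -0.18 in the others. Rhbdf1 was at 1.26 CPM in miR-21-/- replicate 4 and between 2.05 and 2.11 CPM in the others.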

How the results depend on the processing

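Of the 10 genes, 2 passed the threshold, 1 with no filter on low values (Cd40), 1 with a pseudocount of 10 (Tnf), and 5 at an adjusted p of 0.05 with no fold limit. Over all genes, 986 passed, 517 with no filter, 452 with a pseudocount of 10, 1982 at an adjusted p of 0.005 and 4982 at 0.05 with no fold limit, and 685 to 1001 with 1 sample left out. Of 71 tested genes of the lists, 7 passed the threshold, 26 at an adjusted p of 0.05 with no fold limit (36.0% of all tested genes did), and 6 without miR-21-/- replicate 1.

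With 1 sample left out, the difference in log2 ratio ranged from -0.66 to -0.58 for Tnfrsf1b to Tnfrsf1a, from 0.53 to 0.83 for Tnf to Tnfrsf1a, from 1.12 to 1.43 for Tnf to Tnfrsf1b, and from -0.25 to 0.031 for Tnfsf9 to Tnfrsf9, whose sign thus changed. Tnfsf13b to Tnfsf13 passed 0.05 with a pseudocount of 10 (0.37, exact permutation test, adjusted p = 0.0357) and not with one of 0.1 (0.43, adjusted p = 0.214). The log2 fold change of Tnfsf13b ranged from -0.22 to 0.018 (without WT replicate 4) with 1 sample left out and was 0.061 after quantile normalization; the cause was not tested. The direction of the other 9 genes was the same in every fit.

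Deviations of samples with the same replicate number had correlations of 0.083, -0.11, -0.14 and 0.22, and WT replicate 4 alone correlated best with its own number. The replicate numbers follow the order of the samples and do not match the numbers in the miR-21-/- titles. Whether samples were handled together by title or batch was therefore not tested. With the replicate block 922 genes and 2 of the 10 genes passed, and the adjusted p of Tnfrsf1a was 0.00980. Of the 10 genes, Tnfsf13b rests on the fewest reads.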
